A study of Mus musculus with 17 samples.

Results

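The transcription factor genes Ebf1, Ebf2, Ebf3, Tcf4, Zeb2, Klf4 and Nfatc4 were followed across 17 single Tomato-positive cells of adult mouse back skin. They were taken by gene symbol, and these 7 genes had 1 row each among the 8446 rows of the expression table. The cells came from C57BL/6 mice of the genotype Prrx1-CreERT;Tomato, in which tamoxifen activates a Cre recombinase under Prrx1 control and marks cells with Prrx1 activity, and their descendants, with a red reporter. Tamoxifen had been injected on each of 3 days at 2 mg per 30 g of body weight. Red cells were sorted from digested skin and picked one by one. All 17 cells, numbered 1 to 17, form 1 group, no untreated or unlabelled cells stand beside them, and the labels name no animal. The cells therefore count as 1 sample, and what follows is levels and spreads over cells with no p-value.

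EBF proteins (early B cell factors) are DNA-binding factors known from B lymphocyte development and from the commitment of mesenchymal cells to fat. TCF4 is a class I basic helix-loop-helix factor, or E protein, which pairs with tissue-restricted partners such as the Twist proteins and is held inactive by Id proteins. ZEB2 is a zinc finger repressor that binds Smad proteins and silences epithelial genes. KLF4 is a Krüppel-like zinc finger factor and one of the reprogramming factors, and NFATC4 is moved into the nucleus by the calcium-dependent phosphatase calcineurin. Values are the deposited log values, read as log2(FPKM + 1), where FPKM is fragments scaled to transcript length and library size. Detection means FPKM 1 or more, which is a value of 1.

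The cells were checked against markers of cell types, none of which marks skin as the organ. Each cell had 12 to 14 of 14 measured fibroblast markers detected, and the summed FPKM of these markers ranged from 6428 to 31085 per cell. For pericytes and smooth muscle, 6 of 10 listed markers had a row, each cell had 0 to 5 of them detected, and their summed FPKM ranged from 0.110 to 93.01. For endothelium 3 of 8 had a row, each cell had 0 to 2 detected, and the sum ranged from 0.315 to 74.6. For fat cells 4 of 7 had a row, and their sum ranged from 0.600 to 982.3. Schwann and neural markers, 2 of 6 with a row, summed to at most 119.8, in cell 7, where S100b stood at 6.91. The 1 melanocyte marker with a row, Mitf, reached FPKM 108.7 in cell 5. The 2 keratinocyte markers summed to at most 48.4, the 1 myeloid marker to 24.7 and the 1 red blood cell marker to 27.5. Some of these markers were widespread: Alas2 of red blood cells was detected in 14 cells, and Mbp of Schwann cells and Fabp4 of fat cells in 12 each. The other fat, Schwann, melanocyte, keratinocyte and myeloid markers with a row were detected in 1 (Krt79) to 7 (Cfd) cells. No B lymphocyte, T lymphocyte or skeletal muscle marker of the lists had a row, so these types were not analysed here, and neither were Ptprc and Pecam1. The normalisation gave every cell 4369 detected rows, so that this count no longer shows a difference in depth. The number of rows at a cell's lowest value still ran from 871 in cell 14 to 1766 in cell 17. Its correlation with the 7 factor genes lay between -0.01 for Ebf2 and 0.32 for Nfatc4, with Klf4 at 0.30 (Spearman 0.46). The part of such library differences in the levels was not tested.

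Klf4 and Ebf1 were detected in all 17 cells, Zeb2 and Tcf4 in 16 each, Ebf2 in 12, Nfatc4 in 5 and Ebf3 in 3. Of all rows in the table, 13% were detected in all 17 cells and 46.9% in at least 9 cells, against 2 of the 7 factor genes in all cells and 5 of the 7 in at least 9. A cell had a median of 5 of the 7 genes. Cell 6 alone had all 7, and cell 9 had the fewest, 3. The most frequent pattern, in 7 cells, was detection of every gene except Ebf3 and Nfatc4.

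**Figure D1:**
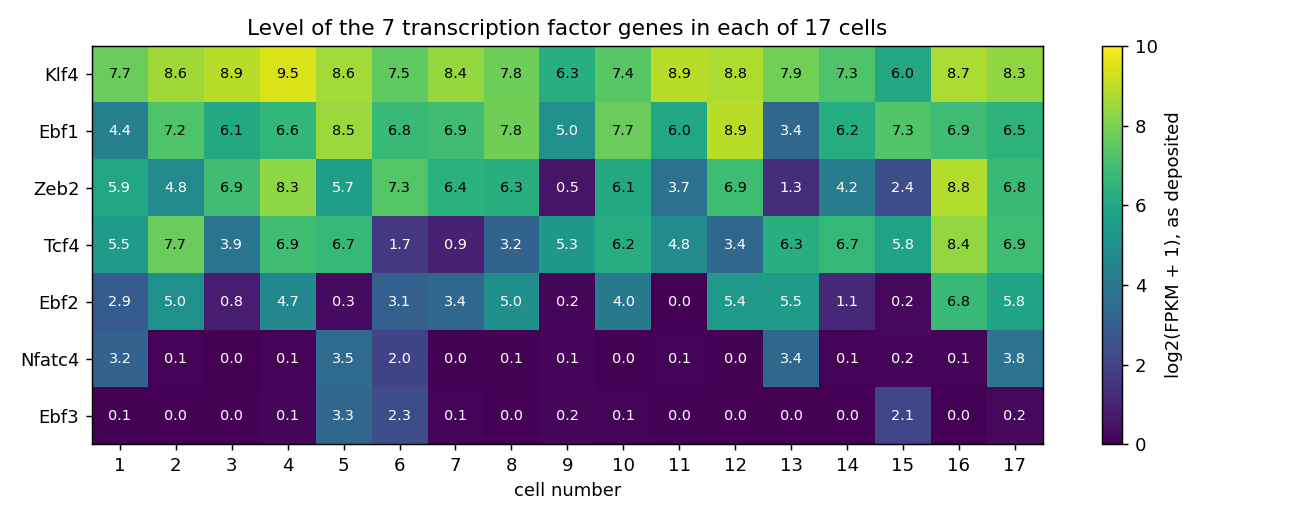
Heat map of the deposited log2(FPKM + 1) value of each gene (down the page, by falling mean) in each cell (across, cells 1 to 17). Klf4 and Ebf1 are detected in every cell, Ebf1 at its lowest, 3.36, in cell 13, whereas Nfatc4 and Ebf3 lie near 0 except in 5 and 3 cells.

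The start regions of 4 of these genes are shown because they contrast the most and the least widely detected EBF gene, Ebf1 and Ebf3, and the pair of factor genes with the highest Pearson correlation over cells, Zeb2 and Klf4. Each holds 300 bases from 250 before to 50 after a start site, on the gene's own strand, from RefSeq on GRCm38.p6. The site taken is the farthest upstream of those listed there, and 5 of the 7 genes had one. For Ebf1 it is not the outermost annotated start: the window begins at 44617850, inside the gene, which begins at 44617317 in GENCODE. The Ebf3, Zeb2 and Klf4 windows reach beyond the annotated gene ends. Capitals mark the letters CACCC or GGGTG, which KLF proteins recognise, and CANNTG, the E-box of E proteins.
Ebf1 chr11:44617850-44618149, plus strand: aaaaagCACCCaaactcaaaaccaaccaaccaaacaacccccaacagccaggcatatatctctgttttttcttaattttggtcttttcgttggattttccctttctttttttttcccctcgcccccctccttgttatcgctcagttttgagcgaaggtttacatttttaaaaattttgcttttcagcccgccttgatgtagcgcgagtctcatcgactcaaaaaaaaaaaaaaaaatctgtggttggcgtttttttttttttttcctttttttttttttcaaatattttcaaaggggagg
Ebf3 chr7:137314396-137314695, minus strand: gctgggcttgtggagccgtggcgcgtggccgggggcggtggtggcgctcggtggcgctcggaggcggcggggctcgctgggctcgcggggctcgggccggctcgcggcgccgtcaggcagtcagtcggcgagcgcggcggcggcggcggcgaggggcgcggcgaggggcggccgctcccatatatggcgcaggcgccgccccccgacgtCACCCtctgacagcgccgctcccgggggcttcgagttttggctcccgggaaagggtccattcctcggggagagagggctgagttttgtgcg
Zeb2 chr2:45117393-45117692, minus strand: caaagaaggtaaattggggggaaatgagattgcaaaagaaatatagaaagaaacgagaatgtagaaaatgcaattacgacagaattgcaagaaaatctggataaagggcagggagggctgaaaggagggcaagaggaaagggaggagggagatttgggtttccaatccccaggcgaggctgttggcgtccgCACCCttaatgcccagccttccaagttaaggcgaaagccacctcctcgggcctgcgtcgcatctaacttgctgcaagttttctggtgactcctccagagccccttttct
Klf4 chr4:55532426-55532725, minus strand: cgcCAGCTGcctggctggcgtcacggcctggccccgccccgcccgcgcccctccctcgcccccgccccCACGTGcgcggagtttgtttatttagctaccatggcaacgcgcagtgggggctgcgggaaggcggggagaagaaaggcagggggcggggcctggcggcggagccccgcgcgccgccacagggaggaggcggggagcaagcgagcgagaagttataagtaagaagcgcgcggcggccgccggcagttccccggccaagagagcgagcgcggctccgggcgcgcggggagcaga

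These windows differed in base composition, though the Ebf1 window lies inside its annotated gene, unlike the other windows printed. Guanine and cytosine made up 36.7% of the Ebf1 window and 77.0% of the Ebf3 window, and 49.3% of the Zeb2 window and 74.3% of the Klf4 window, where the median over all start windows was 52.7%. The Ebf3 and Klf4 windows held 46 and 40 CG pairs, the Ebf1 and Zeb2 windows 9 each. Searched on both strands, the E-box CANNTG stood 2 times in the Klf4 window, as CAGCTG and CACGTG, and in none of the other windows printed, while 72.3% of all start windows hold at least 1. The letters CACCC stood 1 time each in the Ebf1, Ebf3 and Zeb2 windows and not in the Klf4 window, against 57.5% of all windows. The EBF site, TCCC and GGGA with 2 bases between them, was in none of the windows printed and in 0.904% of all, the ZEB-type E-box CAGGTG, which is one form of CANNTG, in none and in 20.2% of all. A match describes letters and not binding, and its absence concerns this window only.

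Ebf1 was the dominant EBF gene. It (ENSMUSG00000057098, chromosome 11, 44617317 to 45008091 on GRCm38, plus strand) ranged from 3.36 in cell 13 to 8.93 in cell 12 with a median of 6.77. Its mean was 6.60 (SD 1.41, n = 17 cells), higher than the mean of 92.7% of genes, and 16 cells held it at FPKM 10 or more. Ebf1 was detected without gaps, and only cells 1, 9 and 13 lay below 6. Its SD was below the median SD of 1.87 over the 318 genes whose means lay within 0.5 of its own.

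Ebf2, which marks committed fat cell precursors and brown fat in mice, was present in some cells and nearly absent from others. It (ENSMUSG00000022053, chromosome 14, 67233292 to 67430918, plus strand) ranged from 0.03 in cell 11 to 6.78 in cell 16 with a median of 3.39 and a mean of 3.19 (SD 2.32, n = 17 cells). Detection in 12 of 17 cells has an exact Clopper-Pearson 95% interval up to 89.7%, which like all intervals here covers counting error over cells only. Cells 2, 4, 8, 10, 12, 13, 16 and 17 held Ebf2 at FPKM 10 or more, while cells 3, 5, 9, 11 and 15 lay below detection at 0.81 or less.

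Ebf3 was detected in 3 cells and then at low level. It (ENSMUSG00000010476, chromosome 7, 137193673 to 137314445, minus strand) had values of 3.28 in cell 5, 2.35 in cell 6 and 2.09 in cell 15, and 0.22 or less in the other cells. No cell reached FPKM 10. The fourth family gene, Ebf4, has no row and was not analysed here.

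Within single cells Ebf1 led the family almost throughout. It had the highest of the 3 values in 16 of 17 cells (94.1%, exact 95% interval 71.3% to 99.9%), and Ebf2 in cell 13, where Ebf2 stood at 5.49 and Ebf1 at its lowest, 3.36. Ebf1 exceeded Ebf2 by a mean of 3.42 (SD 2.60 over cells) and Ebf3 by 6.10 (SD 1.44), both differences larger than their spread over cells. Ebf2 exceeded Ebf3 by 2.68 (SD 2.89), which is within that spread. Of the summed FPKM of the 3 genes, Ebf1 made up a median of 92.2%, from 17.5% in cell 13 to 99.9% in cell 11. In cells 16 and 17, where Ebf2 was highest, that share was 52.2% and 60.9%. Cell 16 also had the highest summed FPKM of fat cell markers, 982.3 against a median of 67.3, with Cfd at 9.70, and cell 13 was the only cell with the keratinocyte gene Krt79, at 5.22. The part of such transcripts in the EBF shares was not tested.

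**Figure D2:**
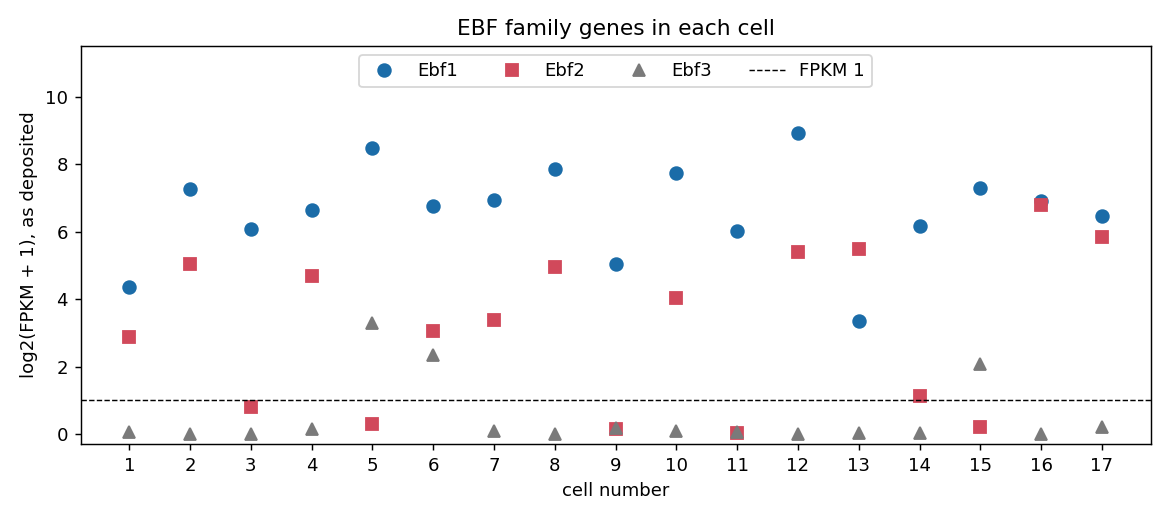
Deposited log2(FPKM + 1) value (vertical axis) of Ebf1 (circles), Ebf2 (squares) and Ebf3 (triangles) in each cell (horizontal axis), with a dashed line at FPKM 1. Ebf1 is the highest of the 3 in 16 cells, and cell 13 is the exception.

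Ebf2 and Ebf3 were detected together in 1 cell. Of the 3 cells with Ebf3, cell 6 also had Ebf2, at 3.06, while cells 5 and 15 held Ebf2 at 0.31 and 0.20. Ebf2 was detected in 12 of all 17 cells, and 3 cells with Ebf3 are too few to read an avoidance from this count. Over 17 cells the Pearson correlation of the 2 genes was -0.42 (Spearman -0.41), the lowest of all pairs of the factor genes, and it stayed between -0.50 and -0.29 when any 1 cell was left out. The endothelial list moved unevenly with Ebf3: the correlation was 0.77 for Tek, an angiopoietin receptor detected in 7 cells and highest in cell 5, but -0.34 for Plvap and -0.18 for Esam, and the part of these transcripts in the result was not tested. The EBF partner genes were sparse. Zfp521, a zinc finger inhibitor of Ebf1 in mice, was detected in 7 cells and highest, 5.52, in cell 16, and Zfp423, an early fat lineage factor that binds EBF proteins, in cell 8 alone, at 3.52.

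Genes of fat formation, which EBF factors are known to act on, were mixed. Of 12 listed genes 9 had a row, and 6 were detected in at least 9 cells, against 46.9% of all rows. The most widely detected were Cebpd (mean 5.21, SD 1.97), Lpl (mean 5.09, SD 2.26), Plin2 (mean 5.41, SD 2.16) and Cebpb (mean 4.85, SD 2.41). Cebpa, Adipoq and Plin1 have no row and were not analysed here. Pparg, the nuclear receptor gene at the centre of adipogenesis, passed detection in 2 cells and reached at most 2.56. The mean over the 9 genes correlated over cells at 0.18 with Ebf1, 0.39 with Ebf2 and 0.00 with Ebf3, and at 0.54 with Tcf4, 0.41 with Klf4, 0.28 with Zeb2 and 0.18 with Nfatc4. By Spearman Tcf4 (0.44), Klf4 (0.43) and Ebf2 (0.39) lay close together, so no order among these 3 genes is read. The mean of the list was highest, 5.11, in cell 16, where Tcf4, Ebf2 and Zeb2 were also highest. Among the single genes, Lpl, the lipoprotein lipase gene, correlated at 0.67 with Zeb2, and the fatty acid transporter gene Cd36, at most 3.02, at 0.66 with Tcf4, as did Fabp4, which encodes a fatty acid binding protein, at 0.57.

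Tcf4 was abundant but uneven. It (ENSMUSG00000053477, chromosome 18) ranged from 0.92 in cell 7 to 8.37 in cell 16 with a median of 5.76 and a mean of 5.30 (SD 2.08, n = 17 cells). Cells 6 and 7 were lowest, and 13 cells reached FPKM 10. The gene was lower in cells 6 to 14 (mean 4.27) than in cells 1 to 5 (mean 6.15) and cells 15 to 17 (mean 7.01). These 3 runs of cells come from clustering on 224 genes that are low in every cell, a grouping made from the data and not by the study. Tcf4 also correlated at -0.73 (Spearman -0.75) with a cell's median similarity to the other cells, whose lowest value, 0.448, belongs to cell 16. Among markers of other cell types, Alas2 of red blood cells correlated with Tcf4 at 0.55. Pericyte and smooth muscle genes lay between -0.13 (Acta2) and 0.46 (Rgs5). Endothelial genes ran from -0.19 (Plvap) to 0.44 (Esam), and Schwann and neural genes from -0.15 (S100b) to 0.47 (Mbp). The part of the libraries and of such transcripts in the Tcf4 pattern was not tested.

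Among the other E proteins, Tcf12 was detected in 12 cells (mean 3.23, SD 2.35) and Tcf3 in 7 (mean 1.93, SD 2.34). The correlation of Tcf4 was -0.24 with Tcf12 and 0.29 with Tcf3. The Id genes, whose products block E proteins, were led by Id3, detected in all 17 cells with a mean of 8.66 (SD 1.84). Id2 was detected in 14 cells and Id1 in 8. Of the 6 measured genes of this list 4 were detected in at least 9 cells, as were 46.9% of all rows in the table. Among mesenchymal partner and homeobox factors 9 of 13 measured genes were, the most widespread being Prrx1 in 17 cells, Osr2 (mean 4.72, SD 2.67) and Foxp1 (mean 3.71, SD 2.81) in 15 each and Twist1 (mean 4.00, SD 2.63) in 14. Prrx1, the gene whose activity marked the cells, correlated at 0.49 with Ebf3, 0.41 with Tcf4, 0.31 with Nfatc4, 0.24 with Zeb2, 0.19 with both Ebf1 and Ebf2, and 0.03 with Klf4.

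Zeb2 was high in most cells and nearly absent from a few. It (ENSMUSG00000026872, chromosome 2, 44983632 to 45117395, minus strand) ranged from 0.54 in cell 9 to 8.83 in cell 16, with a median of 6.07 and a mean of 5.43 (SD 2.33, n = 17 cells). Besides cell 9, cells 13 and 15 were low at 1.32 and 2.36, and the remaining 14 cells were all above FPKM 10. An antisense gene, Zeb2os, overlaps it and has its own row, with detection in 5 cells and up to 5.48 in cell 10. Without a statement on strand the reads of the 2 genes cannot be told apart, although their correlation over cells was -0.03. Antisense gene models also overlap the 3 EBF genes, and these models have no row.

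The paralog Zeb1 was detected in 14 cells (mean 3.89, SD 2.40) and correlated with Zeb2 at 0.47. Snai2, which encodes the repressor Slug, was detected in 5 cells. Snai1 and Snai3 have no row and were not analysed here. The corepressor and chromatin genes Chd4 and Ctbp1 were detected in 15 and 14 cells. Of 8 measured genes of this list 6 were detected in at least 9 cells, against 46.9% of all rows. Of the receptors and Smads upstream, 7 of 11 measured genes were detected in at least 9 cells, with the TGF-beta receptor genes Tgfbr2 (mean 6.41, SD 1.51) and Tgfbr3 (mean 5.27, SD 1.91) in every cell and Smad4 and Bmpr1a in 12 each. Of the adhesion and cytoskeletal targets of ZEB factors, Vim (mean 10.54, SD 0.72) and Fn1 (mean 8.52, SD 1.10) were detected in all cells, Cdh11 in 6 and Tjp1 in 2. The epithelial genes of that list other than Tjp1, Cdh1 among them, have no row and were not analysed here.

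Klf4 had the highest mean per length and the smallest SD of the 7 genes. It (ENSMUSG00000003032, chromosome 4, 55527143 to 55532466, minus strand) ranged from 6.02 in cell 15 to 9.45 in cell 4 with a median of 8.34 and a mean of 8.03 (SD 0.94, n = 17 cells). Every cell held it above FPKM 10, and it was the highest of the 7 genes in 12 cells, followed by Ebf1 in 4 and Zeb2 in cell 16. This rank depends on the division by length: with FPKM multiplied by length, the Klf4 mean of 9.64 lay below those of Tcf4, 9.95, and Ebf1, 9.87. Its SD compares with a median of 1.35 over the 171 genes with means within 0.5 of its own.

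Several KLF genes were widely detected. Of 17 listed KLF genes 10 had a row, and 7 were detected in at least 9 cells, against 46.9% of all rows. Klf6 (mean 7.51, SD 1.19) and Klf9 (mean 5.04, SD 1.35) were detected in all 17, Klf2 (mean 5.20, SD 2.11) in 16, Klf13 (mean 5.10, SD 2.70) in 15 and Klf3 (mean 3.52, SD 2.31) in 14. The rest of those with a row were sparser, with Klf7 in 9 cells, Klf10 in 8, Klf11 in 6 and Klf15 in 2. The KLF genes without a row, Klf5 among them, were not analysed here. Klf4 correlated at 0.36 with Klf7, 0.21 with Klf6, 0.00 with Klf2 and -0.04 with Klf9.

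**Figure D3:**
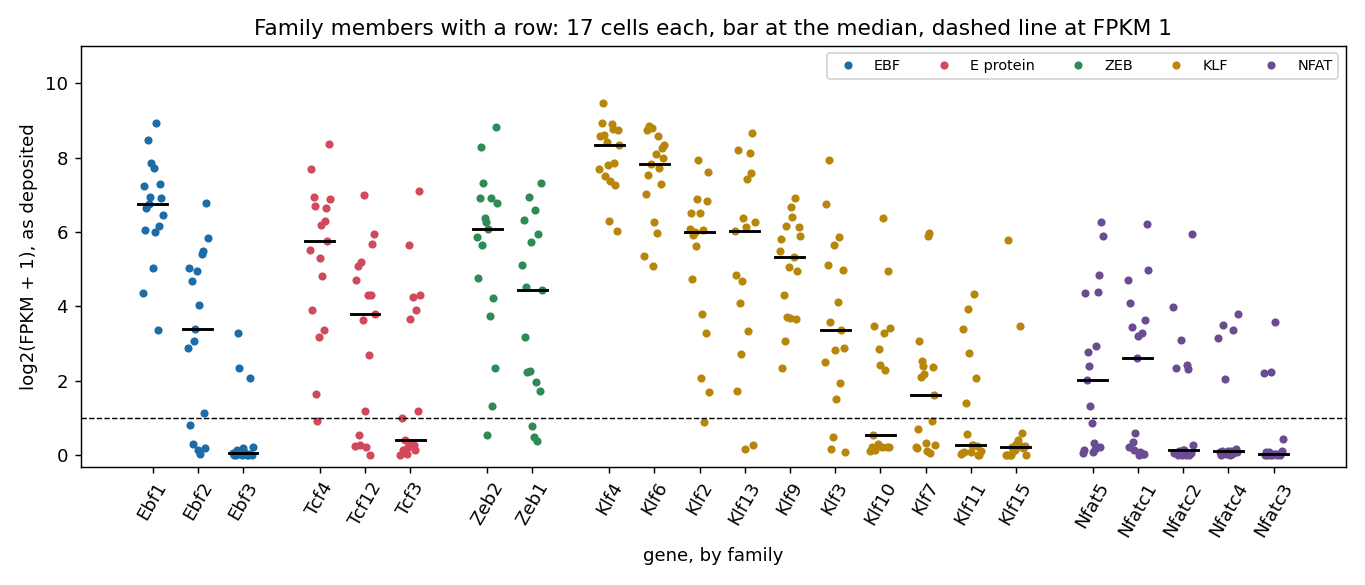
Deposited log2(FPKM + 1) value (vertical axis) of each EBF, E protein, ZEB, KLF and NFAT gene that has a row, 1 point per cell, with a bar at the median over 17 cells and a dashed line at FPKM 1. Klf4 and Klf6 have the highest medians, 8.34 and 7.82, and every NFAT gene has cells near 0.

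Klf4 is also an early response gene, and tissue digestion is known to induce such genes. Of 18 measured immediate-early genes, 16 were detected in at least 9 cells and 11 in all 17, against 46.9% and 13% of all rows. These genes were led by Fos (mean 10.03, SD 1.65), Zfp36 (mean 8.71, SD 1.25), Dusp1 (mean 8.05, SD 1.91) and Egr1 (mean 7.79, SD 1.46). Their mean level per cell ran from 3.41 in cell 8 to 7.03 in cell 17. It correlated over cells at 0.55 with Klf4 (Spearman 0.46), while for the other 6 factor genes the correlation lay between -0.24 for Ebf1 and 0.36 for Nfatc4. By Spearman Klf4 hardly stood apart, since Ebf2 had 0.44, Zeb2 0.41 and Tcf4 0.33. Egr1 (0.63), Atf3 (0.57), Jun (0.49) and Jund (0.49) were the immediate-early genes nearest to Klf4. No undigested cell was measured, so the level of Klf4 in intact skin cannot be told apart from a response to digestion. Of 6 measured cell cycle genes linked to Klf4, 2 were detected in at least 9 cells, Cdkn1a, an inhibitor that KLF4 is known to activate, in 17 (mean 7.24, SD 2.38) and the cyclin gene Ccnd2 in 13. The others included Trp53 in 8 cells and Cdkn1b in 6, and Klf4 correlated with Cdkn1a at 0.10. Single markers of other cell types also ran with Klf4, namely Alas2 of red blood cells at 0.59, the only marker of that list with a row, and Kcnj8 of pericytes at 0.51, while the other pericyte and smooth muscle genes with a row lay between 0.04 and 0.39. Their part in the Klf4 values was not tested.

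Nfatc4 was detected in a minority of cells. It (ENSMUSG00000023411, chromosome 14, 55823144 to 55833943, plus strand) had values of 3.80 in cell 17, 3.49 in cell 5, 3.37 in cell 13, 3.16 in cell 1 and 2.04 in cell 6, and 0.16 or less in the other 12. The gap between the lowest detected and the highest undetected value was wide, and FPKM 10 was reached in 2 cells, 5 and 17. Detection in 5 of 17 cells has an exact 95% interval up to 56.0%.

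The rest of the NFAT family was similarly patchy, while Calm2, which encodes a calcium sensor, was high. Nfat5, the member that answers osmotic stress and not calcineurin, was detected in 10 cells (mean 2.30, SD 2.16), Nfatc1 in 9 (mean 2.22, SD 2.13), Nfatc2 in 6 and Nfatc3 in 3. Calm2 (mean 9.04, SD 0.96), a calmodulin gene, was detected in every cell and Calm3 (mean 4.99, SD 2.36) in 16. The calcineurin catalytic genes Ppp3cb and Ppp3ca were detected in 14 and 13 cells, and the regulatory gene Ppp3r1 in 8. Rcan1, a calcineurin inhibitor gene that NFAT activates, was detected in 8 cells and correlated with Nfatc4 at 0.21. Of 18 measured genes of this list 7 were detected in at least 9 cells, where 46.9% of all rows in the table were.

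By mean level per length the order was Klf4, Ebf1, Zeb2, Tcf4, Ebf2, Nfatc4 and Ebf3. No neighbours in this order differed beyond their spread, since the mean of each within-cell difference was smaller than its SD. Klf4 exceeded Ebf1 by 1.43 (SD 1.52) and in 13 of 17 cells, and Zeb2 exceeded Tcf4 by 0.12 (SD 3.27) and in 8. Steps of more than 1 place could be larger than the spread, as for Klf4 over Zeb2, by 2.61 (SD 1.87) and in 16 cells. The libraries were made from transcript 3' ends, where reads need not grow with length, and the annotated exons of Tcf4 and Zeb2 sum to 27382 and 19942 bases, against 3049 for Klf4. With FPKM multiplied by length the first 4 places went to Tcf4 (9.95), Ebf1 (9.87), Klf4 (9.64) and Zeb2 (9.57), so their order is not settled by these values, whereas Ebf2, Nfatc4 and Ebf3 kept their places.

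The 7 genes did not all vary in the same direction. Of 21 pairs, 13 had a positive and 8 a negative correlation over cells, with a mean of 0.10 (Spearman 0.06). By Pearson correlation the closest pair was Zeb2 and Klf4 at 0.64 (Spearman 0.53), whereas by Spearman it was Ebf3 and Nfatc4 at 0.61, a pair near 0 in most cells (Pearson 0.38). Cells 4 and 16 were high in both Zeb2 and Klf4, and cells 9 and 15 were low in both. Cell 11 had high Klf4, 8.91, with Zeb2 at 3.75. Leaving out any 1 cell kept the correlation of Zeb2 and Klf4 between 0.52, without cell 9, and 0.72, without cell 11. Leaving out cells 9 and 13, farthest from the Zeb2 median, gave 0.58, but without cell 13 alone the value rose to 0.70. Cells 9 and 15, low in both genes, were not left out together. How far the value leans on them was therefore not tested. Cells share preparation and normalisation, and cell 16 is the least similar to the others, so these values describe the 17 libraries.

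**Figure D4:**
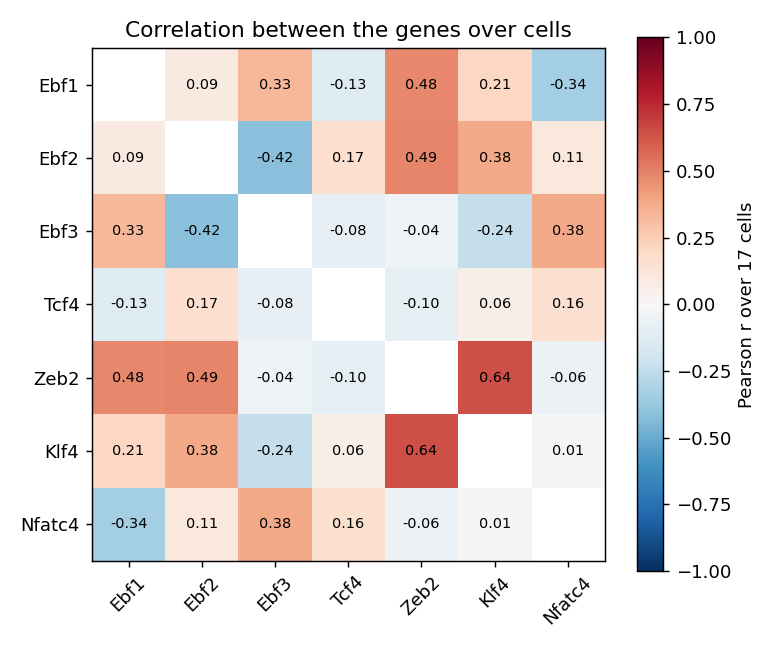
Pearson correlation over 17 cells (colour and printed value) for each pair of the 7 genes. The highest value is 0.64 for Zeb2 and Klf4 and the lowest -0.42 for Ebf2 and Ebf3.

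Zeb2 also correlated with Ebf2, less firmly with Ebf1 and not with Ebf3 (-0.04, Spearman -0.18). For Ebf2 the value was 0.49 (Spearman 0.49). Without any 1 cell it lay between 0.39, without cell 9, and 0.70, without cell 13, in which Ebf2 was high and Zeb2 low. The correlation of Zeb2 with Ebf1 was 0.48 but 0.29 by Spearman, and 0.06 without cells 9 and 13, so it rested on those 2 cells. Ebf2 and Klf4 correlated at 0.38 (Spearman 0.24), at 0.25 without cell 15, and at 0.51 once the means of the 3 runs of cells were subtracted. Tcf4 stood apart from Zeb2 (-0.10), Ebf1 (-0.13) and Klf4 (0.06). Ebf3 and Nfatc4, detected together in cells 5 and 6, correlated at 0.38 (Spearman 0.61), and at 0.12 by Pearson without cell 5.

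**Figure D5:**
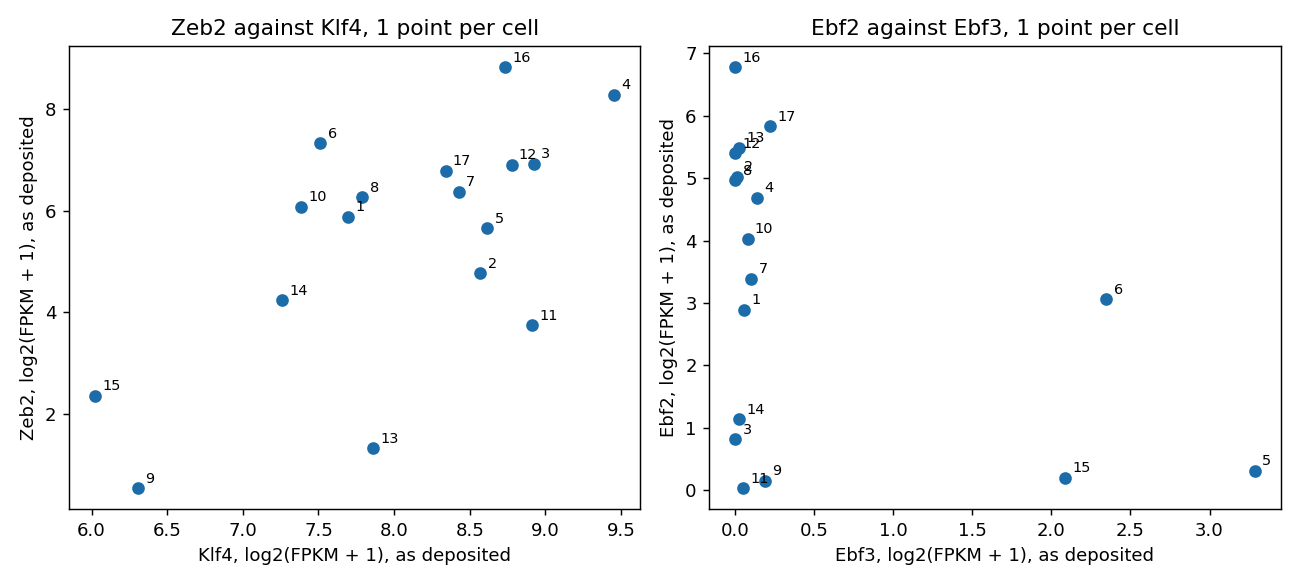
Left, Zeb2 (vertical) against Klf4 (horizontal); right, Ebf2 (vertical) against Ebf3 (horizontal), all as deposited log2(FPKM + 1), 1 numbered point per cell. On the left cells 9 and 15 lie low in both genes and cells 4 and 16 high in both; on the right only cell 6 has both genes above 1.

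For each of the 7 genes, the 3 genes with the most similar pattern were sought by Pearson correlation over 17 cells among 3931 named genes detected in at least 9 cells. With so many genes and so few cells high values arise readily, so these are descriptions. Nearest to Ebf1 were Fam120a (0.74), Ppdpf (0.74) and Plxdc2 (0.70). Nearest to Ebf2 were Picalm (0.75), Prnp (0.75), the prion protein gene, and Plac9b (0.74), whose near-identical copy Plac9a may share its reads. Nearest to Ebf3, detected in 3 cells only, were Tmem165 (0.73), Akip1 (0.72) and Acyp1 (0.69). By Spearman these values were 0.41, 0.70 and 0.37.

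Tcf4 was most like Rin2 (0.75), Nsd1 (0.74), a histone methyltransferase gene, and March7 (0.73), a ubiquitin ligase gene. Zeb2 was most like Aspn (0.76), which encodes the matrix protein asporin, Adarb1 (0.73), an RNA-editing deaminase gene, and Hagh (0.70). The Aspn value fell to 0.49 by Spearman. Klf4 was most like the transcription factor gene Nfib (0.77), Rpl22l1 (0.72) and Uhrf2 (0.72). Nfatc4, detected in 5 cells only, was most like Creld1 (0.79), Dab2 (0.73), an endocytic adaptor gene, and Idh3b (0.69). The Spearman values with Nfatc4 were 0.53, 0.72 and 0.55. By Spearman none of the 3 named genes stayed among the nearest 3 for Ebf2, Ebf3 and Klf4, 1 did for Tcf4, Zeb2 and Nfatc4, and 2 did for Ebf1. When the means of the 3 runs of cells were subtracted, all 3 stayed for Ebf1, 2 for Ebf3, Zeb2, Klf4 and Nfatc4, and 0 for Ebf2 and Tcf4. With all named genes admitted that lay above the lowest value in any 1 cell, 0 stayed for Ebf3 and Nfatc4.

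Against the 14 fibroblast markers each of the 7 genes had correlations of both signs. They ran from -0.47 (Col1a1) to 0.39 (Vim) for Ebf1, from -0.32 (Mfap5) to 0.45 (Fbln2) for Ebf2, and from -0.49 (Col1a1) to 0.24 (Fbln1) for Ebf3. For Tcf4 they ran from -0.34 (Vim) to 0.45 (Col1a1), for Zeb2 from -0.20 (Mfap5) to 0.38 (Fbln2), and for Nfatc4 from -0.32 (Vim) to 0.57 (Fbln1). The collagen gene Col1a1 correlated at -0.47 with Ebf1 and -0.49 with Ebf3, but at 0.41 with Ebf2 and 0.45 with Tcf4. For Col1a2 the values were -0.41, -0.45, 0.37 and 0.30. In cell 13 both collagen genes were at their highest, 11.75 and 13.26, and Ebf1 at its lowest. The microfibril gene Mfap5 correlated at -0.53 with Klf4, and Fbln2, which encodes the matrix protein fibulin, at 0.53.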

How the data were processed

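RNA of 17 sorted and individually picked Tomato-positive back skin cells had been made into libraries with the SMART-Seq v4 3' DE kit and Nextera XT, per the labels' protocols. TopHat2, Cufflinks and the build GRCm38 were used, per the submitters' processing notes. For versions, settings and strand handling: not given in the sources used here. Those deposited values are on a log scale, read here as log2(FPKM + 1), with the base and the added constant inferred. Back-transformed sums are 592939 to 592955 per cell with base 2, against 12675767 in cell 1 with base e. That the sums are nearly equal goes with the normalisation and does not bear on the base. The sums do not test the added constant. Sorted values above 3 differ by at most 0.0165 between cells, the form that quantile normalisation gives, so depth per cell is unknown. Of 8446 rows, 8431 matched GENCODE M21 on GRCm38, from which coordinates and exonic lengths come. Where a symbol had several rows, the one of highest mean was kept, and symbols turned into dates were restored by identifier.

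Detection is FPKM 1 or more. Pearson and Spearman correlations over cells carry no p. Named genes are the 7 members, the 3 nearest genes of each, at most 4 list members detected in the most cells, and all measured family members. One list member that this rule names is left out. A few more list members, chosen with their values in view, are named beside them. Members and lists were chosen with earlier results of these data known. The nearest-gene search was tested on simulated data. Sets of cells came from average-linkage clustering of Spearman correlations on 224 genes under 2.5 in all cells. Software was scipy 1.17.1 with numpy 2.4.6, pandas 2.3.3 on Python 3.11.15, and matplotlib 3.10.9 for plots.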

Additional observations from a re-analysis of the deposited data

How the results depend on the processing

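No paired analysis was possible because all cells form 1 group. The number of genes detected in all 17 cells, 2, was 5 above the lowest value, 1 at FPKM 10 and 4 after multiplication by length, and 2 to 3 without any 1 cell. The median per cell, 5 of 7, was 7 above the lowest value and 4 at FPKM 10. Multiplied by length, mean levels were 9.87 for Ebf1, 9.95 for Tcf4, 9.57 for Zeb2 and 9.64 for Klf4, and 4 of 7 places in the order stayed. With an added constant of 0.1, Ebf3 averaged -1.94 and Nfatc4 -1.03. Of the listed genes with a row, 68 of 107 (63.6%, against 46.9% of all rows) were detected in at least 9 cells, and 105 above the lowest value. The share of all rows was computed at FPKM 1 only, so the counts at other thresholds have no background here. Only 871 to 1766 of 8446 rows per cell stood at the lowest value, so most rows lie above it. Ebf3 was detected in 13 cells and Nfatc4 in 15 above the lowest value. Ebf1 was the highest EBF gene in 15 or 16 cells without any 1 cell, and in 16 after rescaling or multiplication by length. The mean pair correlation was 0.0457 to 0.137 without any 1 cell. Leaving out cells 9 and 13 was chosen after the data were seen. The causes were not tested, and since the depth is unknown, no limit of detection is stated.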
